A study of Saccharomyces cerevisiae with 6 samples.

Results

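The genes described here encode mitochondrial ribosomal proteins of the budding yeast Saccharomyces cerevisiae. They were chosen by name, as nuclear genes whose standard symbol is MRPL, MRPS, RSM or MRP followed by a number in the RefSeq gene table of assembly R64. This gave 67 genes among the 6256 on the array, all of which had a probe, namely 34 MRPL, 9 MRPS, 11 RSM and 13 MRP genes. By the protein each encodes, 38 belong to the large subunit and 27 to the small subunit, with MRP20, MRP7, MRP49 and MRP35 counted as large. RSM22, related to methyltransferases and regarded as an assembly factor, and MRP8, which current annotation does not count as a ribosomal protein, were placed in neither subunit.

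The series compared BH13, a mutant strain with improved resistance to the phenolic aldehyde coniferyl aldehyde, with its reference strain, called REF. Both were grown without treatment in yeast minimal medium at 30 °C and 150 rpm to log phase, at an optical density of about 1.0. The labels name no alleles, ploidy or mating type for either strain, and BH13 is 1 selected mutant. Each strain had 3 samples of total RNA, each on its own Agilent one-colour array, and nothing states that they came from separate cultures, so p-values measure the spread between samples, which may be technical.

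The mitochondrial ribosome translates the few proteins encoded in mitochondrial DNA, which in yeast are mainly core subunits of the respiratory chain and ATP synthase. Nearly all of its proteins are encoded in the nucleus, made in the cytosol and imported. Some belong to protein families shared with bacterial ribosomes, and the others are found only in mitochondria. Yeast that can ferment survives without mitochondrial translation but cannot respire. Family names below, such as uL11 or mS42, follow the general nomenclature for ribosomal proteins, in which u marks a universal, b a bacterial and m a mitochondrial protein.

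Signals are given as a percentage of each array's 75th percentile of gene spot intensity, and differences are BH13 minus REF on the log2 scale, each followed by ± its limma standard error (3 arrays a strain). A gene was called where limma's p, adjusted by Benjamini-Hochberg over the 5890 genes tested, was under 0.05. All 67 genes were well above background on all 6 arrays, so none entered through 1 strain alone, and the precision is limited by the number of arrays. The 75th percentile was 2301 to 4905 intensity units. All BH13 arrays were on 1 slide, whereas REF arrays came from a different pair of slides and were scanned years earlier, so strain and scanning batch cannot be told apart. The mean net signal of negative control spots was 58.2 to 63.5 units for BH13 against 27.4 to 31.9 for REF, and its part in the differences was not tested. Messenger levels of a strain were scaled to its own arrays, so a change in total RNA per cell would not be seen.

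Mitochondrial ribosomal protein genes differed between the strains in both directions and in both subunits, with a spread no wider than that of all genes. The standard deviation of the differences was 1.07 over members and 1.30 over all genes tested, and the interquartile range 1.19 and 1.37. The largest increases were those of MRP35, MRPL32 and RSM18, and the largest decreases those of MRPS9, MRPL19 and MRPL35. Of the 67 genes, 24 were higher and 30 lower in BH13, while 13 were not called. That is 80.6% called, beside 81.3% of all genes tested (38% higher and 43.3% lower), so the share of called genes was near the background. Called differences of at least 2-fold were found for 10 genes that were higher and 12 that were lower, 14.9% and 17.9% of the group, beside 17.9% and 17.5% of all genes. For 58 genes, 86.6%, the ranges of the BH13 and REF arrays did not overlap, beside 83.7% of all genes. The median difference was -0.18 and the mean 0.00, with a range from -1.93 to 2.93, and the median over all genes was -0.07. The median standard deviation of a member over the 3 arrays of a strain was 0.09 in BH13 and 0.10 in REF.

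Each subunit held genes that rose and genes that fell. Of the 38 large subunit genes, 12 were higher, 18 lower and 8 not called, with a median difference of -0.22. Of the 27 small subunit genes, 11 were higher, 12 lower and 4 not called, with a median of -0.18 and a mean of 0.07. The shares higher and lower were 31.6% and 47.4% in the large and 40.7% and 44.4% in the small subunit. Over all genes tested they were 38% and 43.3%. By name alone, 9 of 34 MRPL genes were higher and 17 lower (26.5% and 50%). Among 20 MRPS and RSM genes, 7 were higher and 9 lower (35% and 45%). On each array, the median log2 level over large subunit genes minus that over small subunit genes was -0.09, -0.11 and -0.11 in BH13 and -0.07, -0.03 and -0.11 in REF. These 2 sets of array values overlapped. The median log2 level of the large subunit genes, relative to the 75th percentile, was -0.79 ± 0.03 (SD, n = 3) in BH13 and -0.82 ± 0.06 in REF. For the small subunit it was -0.69 ± 0.02 in BH13 and -0.75 ± 0.10 in REF. Both mean levels were above REF in BH13 although the medians of the gene differences were below 0, and the arrays of the strains overlapped for both subunits. The difference in medians between subunits, -0.04, changed sign with quantile normalization (0.0038) and without BH13 replicate 3 (0.05).

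**Figure D1:**
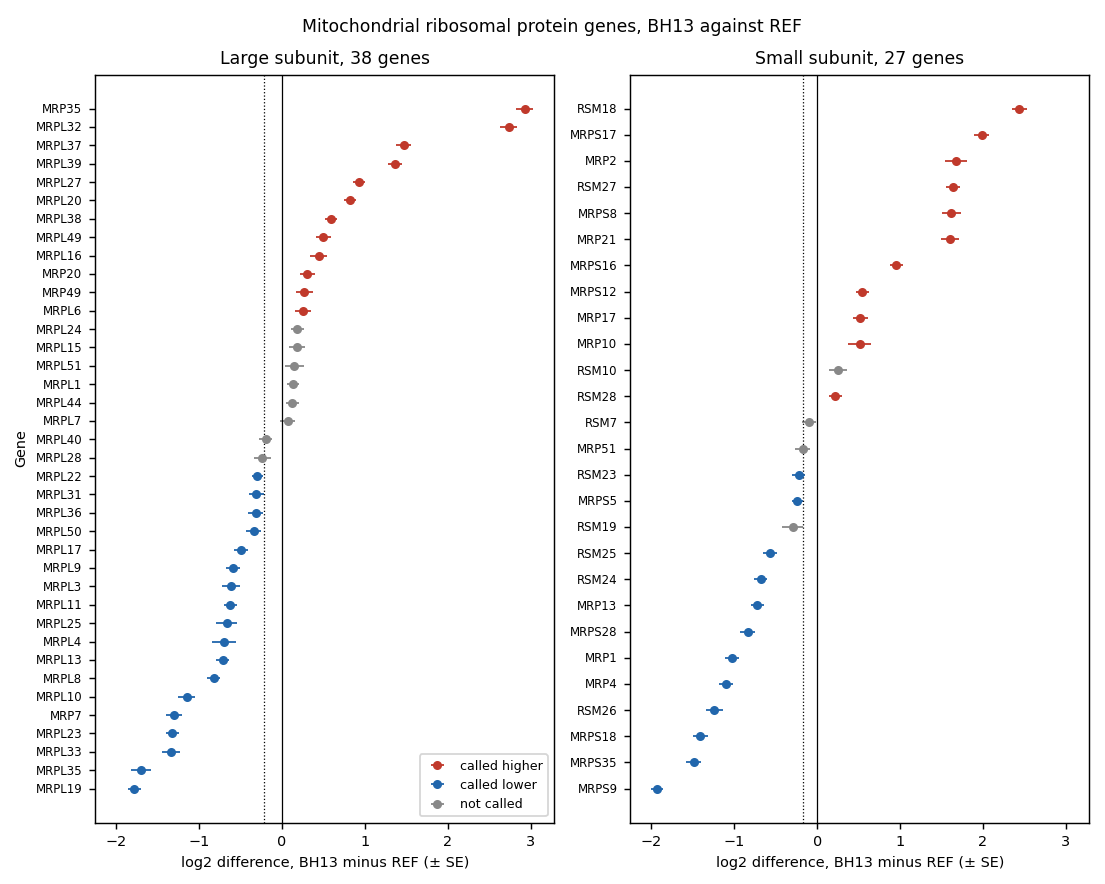
Each point is 1 gene, placed at its log2 difference between BH13 and REF with its standard error as a bar (n = 3 arrays per strain), and dotted lines mark the subunit medians of -0.22 and -0.18. Both panels run from decreases of more than 2-fold to increases of more than 4-fold, and MRP8 and RSM22 are not drawn.

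In the large subunit, the 2 strongest increases were in proteins of bacterial families. MRP35, of family bL35, had signals of 422%, 365% and 384% on the BH13 arrays and 51.5%, 45.4% and 57.4% on the REF arrays. The groups were far apart, with a log2 difference of 2.93 ± 0.10 (limma adjusted p = 9.33e-08). MRPL32, of family bL32, is cleaved after import by the m-AAA protease of the inner membrane before it enters the ribosome. Its signals were 192%, 171% and 159% in BH13 and 25.9%, 23.7% and 28.9% in REF, a difference of 2.73 ± 0.10 (limma adjusted p = 1.14e-07). YTA10 and YTA12, which encode the subunits of that protease, had differences of -0.69 ± 0.11 and 0.19 ± 0.09, of which only the first was called, and YTA12 is named here after its value was seen.

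The next in order were MRPL37 and MRPL39. MRPL37, of the mitochondrial family mL54, had signals of 251%, 212% and 244% in BH13 and 84.5%, 82.9% and 87.6% in REF, with a difference of 1.47 ± 0.09. MRPL39, of family bL33, had signals of 72.0%, 63.6% and 60.8% in BH13 and 25.8%, 25.3% and 25.1% in REF, with a difference of 1.36 ± 0.08. For both genes every BH13 array was more than 2-fold above every REF array. MRPL27 (mL41) rose by 0.93 ± 0.07 and MRPL20 (mL58) by 0.82 ± 0.08, both with no overlap between the strains. Smaller increases were called for MRPL38 (uL14) at 0.59, MRPL49 (bL21) at 0.50, MRPL16 (uL16) at 0.44, MRP20 (uL23) at 0.31, MRP49 (mL61) at 0.27 and MRPL6 (uL6) at 0.25.

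The strongest decrease in the large subunit was in a protein of the stalk base, where translation factors bind. MRPL19, of family uL11, had signals of 13.1%, 12.8% and 11.6% in BH13 and 42.6%, 41.4% and 44.8% in REF. It fell by 1.78 ± 0.08 (limma adjusted p = 2.52e-07), with no overlap between the strains. MRPL11, of family uL10, which anchors the stalk proteins, fell by 0.62 ± 0.08, while MNP1, which encodes the stalk protein bL12 and carries another kind of name, rose by 0.68 ± 0.09. MRPL35, of the mitochondrial family mL38, had signals of 16.1%, 16.2% and 12.5% in BH13 and 43.1%, 50.9% and 51.1% in REF, and fell by 1.70 ± 0.12. The lowest REF array was thus still more than 2-fold above the highest BH13 array.

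MRPL33, of family uL30, had signals of 10.4%, 9.09% and 8.65% in BH13 and 22.3%, 22.2% and 26.7% in REF, and fell by 1.34 ± 0.11. MRPL23 (uL13) was at 20.8%, 23.1% and 21.2% in BH13 against 56.5%, 50.5% and 56.0% in REF, and fell by 1.32 ± 0.08. MRP7, of family bL27, whose bacterial relative reaches towards the peptidyl transferase centre, was at 38.8%, 34.5% and 42.2% in BH13 against 101%, 88.5% and 96.1% in REF, and fell by 1.31 ± 0.10. All 3 genes had every BH13 array below every REF array. MRPL10, of family uL15, fell by 1.15 ± 0.10 in the same manner.

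Further decreases were called in the large subunit for MRPL8 (bL17) at -0.82, MRPL13 (mL50) at -0.72, MRPL4 (uL29) at -0.70, MRPL25 (mL59) at -0.67, MRPL3 (mL44) at -0.62, MRPL9 (uL3) at -0.59, MRPL17 (mL46) at -0.50, MRPL50 (bL9) at -0.34, MRPL36 (bL31) at -0.32, MRPL31 (mL60) at -0.31 and MRPL22 (uL22) at -0.30. The large subunit genes that were not called were MRPL40 (uL24) at -0.20, MRPL28 (mL40) at -0.24, MRPL7 (uL5) at 0.07, MRPL44 (mL53) at 0.12, MRPL1 (uL1) at 0.13, MRPL51 (mL43) at 0.15, MRPL15 (mL57) at 0.18 and MRPL24 (bL28) at 0.18. The 3 nearest to 0 were MRPL7, MRPL44 and MRPL1. MRPL7, for example, had signals of 71.4%, 69.6% and 72.1% in BH13 and 69.3%, 61.3% and 73.4% in REF, and these overlapped.

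In the small subunit, 6 genes rose at least 2-fold. RSM18, of family bS18, had signals of 594%, 483% and 553% in BH13 and 98.8%, 101% and 101% in REF, a difference of 2.44 ± 0.09 (limma adjusted p = 1.07e-07). MRPS17, of family uS17, had signals of 445%, 373% and 424% in BH13 and 108%, 98.3% and 107.3% in REF, a difference of 1.98 ± 0.09. Both stood more than 3-fold above REF on every array. MRP2 (uS14) was at 107.3%, 76.0% and 82.9% in BH13 against 27.8%, 25.3% and 29.4% in REF, and rose by 1.68 ± 0.13. RSM27, of the mitochondrial family mS33, was at 113%, 112% and 110% in BH13 against 34.2%, 39.8% and 34.2% in REF, and rose by 1.64 ± 0.08. MRP2 varied more among the BH13 arrays than RSM27, without reaching the REF values.

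MRPS8 (uS8) rose by 1.62 ± 0.12, with 162%, 117% and 138% in BH13 and 46.0%, 44.4% and 44.6% in REF. MRP21 (bS21) rose by 1.61 ± 0.11, with 76.1%, 59.3% and 65.2% in BH13 and 23.0%, 20.2% and 22.5% in REF. In both, replicate 1 was the highest BH13 array and replicate 2 the lowest. Smaller increases were called for MRPS16 (bS16) at 0.95, MRPS12, of the decoding centre protein family uS12, at 0.54, MRP17 (bS6) at 0.52, MRP10 (mS37), a protein with cysteine pairs folded in the intermembrane space pathway, at 0.51, and RSM28 (mS46) at 0.22.

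The largest decrease of all members was in MRPS9, of family uS9, whose tail in bacteria reaches the peptidyl transfer RNA. Its signals were 12.2%, 11.4% and 11.7% in BH13 and 44.4%, 44.2% and 46.3% in REF, and it fell by 1.93 ± 0.07 (limma adjusted p = 1.01e-07). MRPS35, of the mitochondrial family mS45, had signals of 36.5%, 38.5% and 39.4% in BH13 and 106%, 98.2% and 118% in REF, and fell by 1.49 ± 0.09. MRPS18 (uS11) was at 25.4%, 21.7% and 23.4% in BH13 against 65.7%, 57.2% and 64.1% in REF, and fell by 1.41 ± 0.09. In these 3 genes the strains were separated by more than 2-fold on every pair of arrays.

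RSM26 (mS42) and MRP1 (mS43), which both resemble superoxide dismutase in fold and lie side by side in the ribosome, fell together. RSM26 was at 17.4%, 13.6% and 16.6% in BH13 against 35.97%, 37.8% and 38.4% in REF, and fell by 1.24 ± 0.10. MRP1 was at 46.3%, 49.5% and 47.6% in BH13 against 106%, 91.9% and 94.4% in REF, and fell by 1.02 ± 0.08. MRP4, of family uS2, was at 64.9%, 71.0% and 62.0% in BH13 against 142%, 150% and 133% in REF, and fell by 1.10 ± 0.09. None of the 3 overlapped between strains.

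The remaining calls in the small subunit were decreases, for MRPS28 (uS15) at -0.84, MRP13 (mS44) at -0.72, RSM24 (mS35) at -0.68, RSM25 (mS23) at -0.57, MRPS5 (uS5) at -0.24 and RSM23, the GTP-binding protein mS29, at -0.22. Not called were RSM7 (uS7) at -0.10, MRP51 (bS1), which acts with the leaders of mitochondrial messengers, at -0.18, RSM10 (uS10) at 0.25 and RSM19 (uS19) at -0.30. RSM7 had signals of 214%, 243% and 215% in BH13 and 255%, 225% and 238% in REF, so the strains overlapped. Of the members outside both subunits, RSM22 had a difference of 0.07 ± 0.09 (limma adjusted p = 0.462). MRP8 rose by 0.45 ± 0.15 (limma adjusted p = 0.023), a call lost without BH13 replicate 2, REF replicate 1 or REF replicate 2 (adjusted p up to 0.0727), and REF replicate 3, at 129%, lay close to the lowest BH13 array, at 133%.

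**Figure D2:**
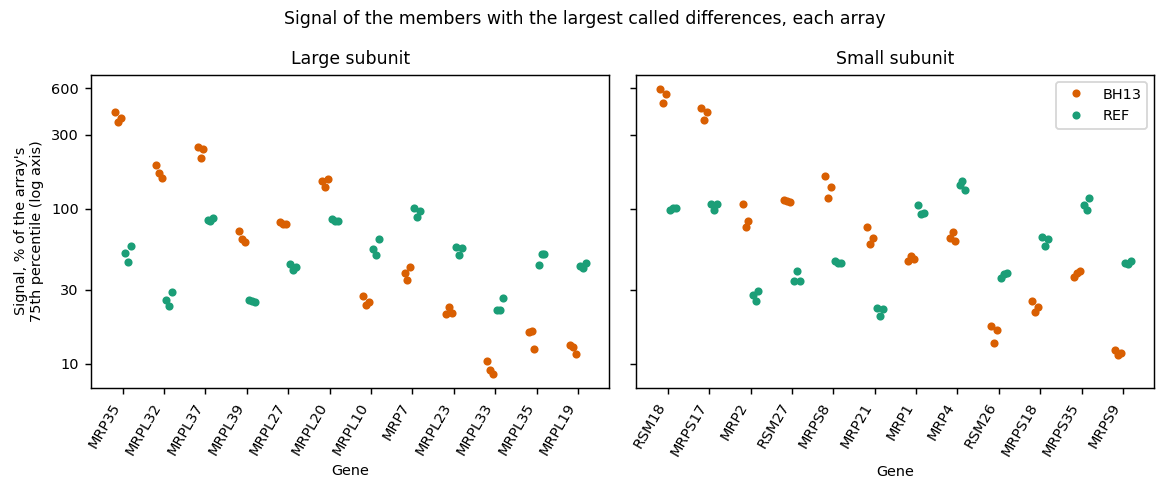
Points are single arrays, 3 per strain, of the 6 members per subunit with the largest called differences in each direction, and the vertical axis gives the signal as a percentage of the array's 75th percentile on a log axis. No gene drawn has overlapping strains, as for RSM18, at 483% to 594% in BH13 and 98.8% to 101% in REF, and levels are compared between strains within a gene.

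Genes for proteins of bacterial families and for proteins found only in mitochondria were both divided, as were all genes tested (38% higher and 43.3% lower). The large subunit had 24 of the first kind, of which 8 rose and 12 fell (33.3% and 50%), at a median of -0.25. Of its 14 found only in mitochondria, 4 were higher and 6 lower (28.6% and 42.9%), the median being -0.06. In the small subunit, 8 of 17 genes of bacterial families rose and 5 fell (47.1% and 29.4%), at a median of 0.25. The 10 small subunit genes found only in mitochondria were all called, beside 81.3% of all genes, 3 higher (RSM27, MRP10 and RSM28) and 7 lower, with a median of -0.63. The same classes differed in coding length, with medians of 612 and 963 bp in the small subunit and 708 and 459 bp in the large, and the part of length in these medians was not tested.

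Short members tended to be higher and long members lower in BH13. Coding length was taken as the distance from start to stop in the RefSeq table, introns included, and the split was chosen after the differences were seen. Among the 23 shortest members, of 213 to 477 bp, 14 were higher and 5 lower, with a median difference of 0.52. Among the 22 of 486 to 810 bp, 9 were higher and 9 lower, the median being 0.18. Among the 22 longest, of 837 to 1887 bp, 1 was higher, RSM28, and 16 were lower, with a median of -0.65. The call of RSM28 was lost without BH13 replicate 2, BH13 replicate 3 or REF replicate 2 (limma adjusted p up to 0.098). Across the 67 members, Spearman's coefficient between difference and length was -0.53 and Pearson's r with log2 length was -0.47, and within the large and small subunits Spearman's coefficient was -0.42 and -0.60. Spearman's coefficient between the difference and the mean log2 level over the 6 arrays was 0.42 across members and -0.0067 across other genes, while level and length were nearly unrelated among members (0.018). These points share the same 6 arrays and are not independent replicates.

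Other genes showed a trend of the same sign. Over 5509 other nuclear protein-coding genes Spearman's coefficient was -0.17. Within the length range of the shortest members, 61.3% of 506 other genes were higher and 21.5% lower, beside 60.9% and 21.7% of the members, and the median of those genes was 0.61. In the middle range the median of other genes was 0.15. In the longest range 31.5% of 2556 other genes rose and 50.4% fell, at a median of -0.23, beside 4.55% and 72.7% of the members. The upper end of that range was set by RSM22, of 1887 bp and in neither subunit. The next longest member was RSM23, of 1353 bp, so these other genes include lengths at which no subunit member lies. When the median of other genes within 10% of its length was subtracted from each member's difference, the median of the longest members was -0.44, with 17 of 22 below their length-matched genes, and that of the shortest was -0.11. That of the middle members was 0.09. Spearman's coefficient with length was then -0.21 across the 67 members, -0.06 within the large subunit and -0.37 within the small. On this length-matched scale the large subunit had a median of -0.29 and the small subunit of -0.05.

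On the arrays themselves the median log2 level of the shortest members was -0.28, -0.40 and -0.33 in BH13 and -1.18, -1.27 and -1.16 in REF. That of the longest members was -1.06, -1.002 and -1.12 in BH13 and -0.63, -0.76 and -0.54 in REF. The strains did not overlap in either of these sets, which were split after the differences were seen, and the sets moved in opposite directions. In the middle range the strains overlapped, at -0.73 to -0.54 in BH13 and -0.72 to -0.61 in REF. The 5 short members that fell were MRPL33, MRPL19, MRPL25, MRPL50 and MRPL31, all of the large subunit. What ties length to the difference was not tested, and the arrays of the strains were scanned years apart.

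**Figure D3:**
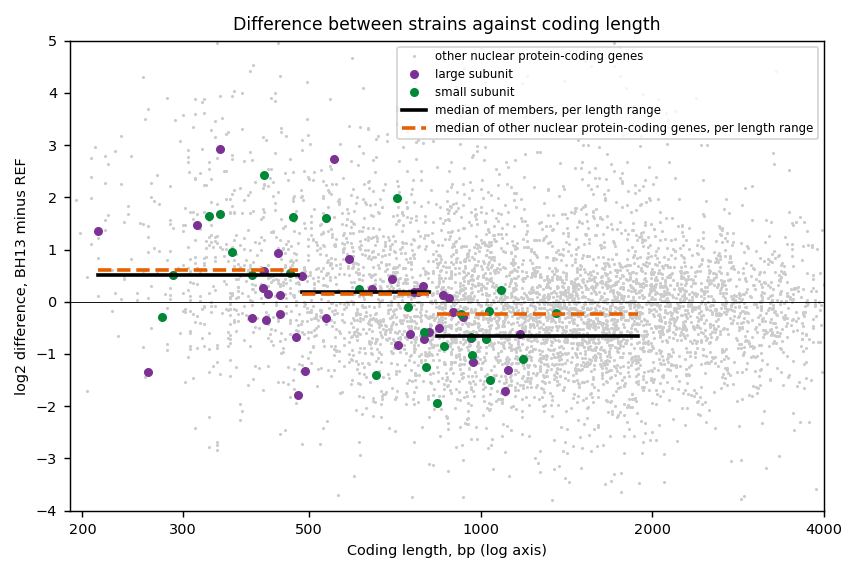
Each point is a gene at its coding length in bp (log axis) and its log2 difference, with members coloured by subunit and other nuclear protein-coding genes in grey, and horizontal lines give medians per length range of the members (solid) and of the other genes (dashed). The lines nearly coincide at 0.52 and 0.61 in the shortest range and part at -0.65 and -0.23 in the longest, while other genes beyond the axes, MRP8 and RSM22 are not drawn.

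In their median, the members lay between cytosolic ribosomal proteins and the nuclear genes for respiration. Those for the respiratory chain and ATP synthase, 39 in all, had 29 called higher and 7 lower. These were 74.4% and 17.9%, beside 38% and 43.3% of all genes. The median difference of the respiratory genes was 0.67 and their median length 468 bp. The set taken by the names of cytosolic ribosomal proteins held 138 genes, many in near-identical pairs that a probe may not separate. In it 37 were called higher and 80 lower (26.8% and 58%), at a median difference of -0.37 and a median length of 771 bp. The set includes RPP1, which encodes a subunit of RNase P and not a ribosomal protein. Without that gene 37 of 137 were higher and 79 lower, with the median again at -0.37. The 67 members had a median difference of -0.18 and a median length of 699 bp. Spearman's coefficient between difference and length was -0.51 for the respiratory genes and -0.35 for the cytosolic set (-0.34 without RPP1).

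**Figure D4:**
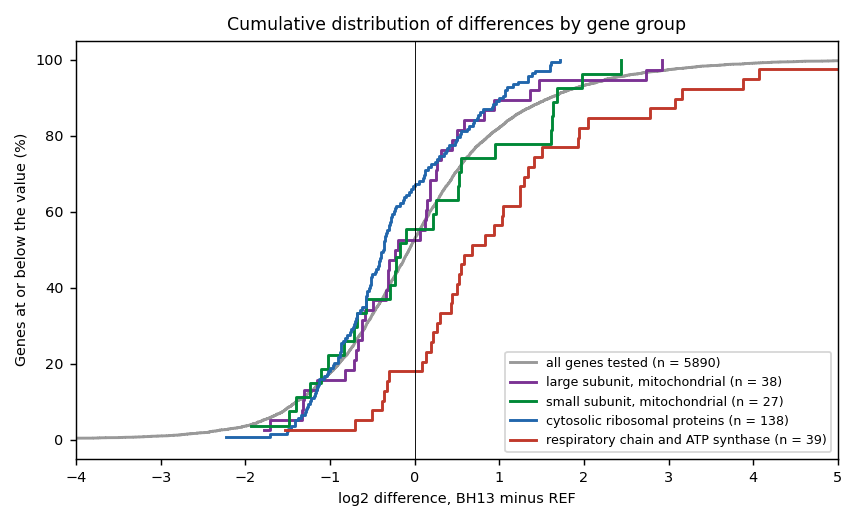
Lines give the cumulative percentage of genes at or below each log2 difference, for both mitochondrial ribosomal subunits, cytosolic ribosomal proteins, nuclear genes for respiration, and all 5890 genes tested. The mitochondrial subunits run close to all genes, with medians of -0.22 and -0.18 beside -0.07, and the respiratory genes lie to the right with a median of 0.67, with values beyond the axis not drawn.

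Other genes of the mitochondrial ribosome and of mitochondrial translation also went both ways, as did all genes tested (38% called higher and 43.3% lower). Of each list of such genes below, from 53.8% (aminoacyl-tRNA synthetases) to 85.7% (assembly) was called, beside 81.3% of all genes. Of 14 further ribosomal proteins whose names do not match, 2 were higher and 7 lower (14.3% and 50%), the median being -0.25. MRX14, of family bL34, rose by 1.68 ± 0.11, NAM9, of family uS4, fell by 0.98 ± 0.08 and RTC6, of family bL36, fell by 0.80 ± 0.09. EHD3, whose product also acts as a hydrolase in valine breakdown, gave no signal well above background in BH13, and its fold is therefore a bound. It was lower by at least 3.31-fold (limma adjusted p = 6.29e-07), taking the REF mean against, on each BH13 array, the higher of its own signal and the lowest signal well above background.

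Of 14 genes for assembly, ribosomal RNA modification and membrane anchoring, 4 were higher and 8 lower, the median being -0.44. These were 28.6% and 57.1%, beside 38% and 43.3% of all genes. MTG3, a GTPase of small subunit assembly, fell by 2.11 ± 0.08, the RNA helicase gene MSS116 by 1.93 ± 0.12 and OXA1, which inserts new chains into the inner membrane, by 1.46 ± 0.08. MBA1, a ribosome receptor of that membrane, rose by 0.73 ± 0.09 and MRM2, a methyltransferase of the large ribosomal RNA, by 0.49 ± 0.09. RSM22 is counted in this list too, and MAM33, which rose by 0.31, is counted both here and among the activators of single messengers.

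Of 13 translation factors and transfer RNA modification genes, 6 were higher and 5 lower, the median being 0.08. These were 46.2% and 38.5%, beside 38% and 43.3% of all genes. RMD9, which stabilises mitochondrial messengers, fell by 2.52 ± 0.11 and IFM1, the initiation factor, by 0.99 ± 0.08. FMT1, which formylates the initiator, rose by 1.16 ± 0.14, but its signals were low. They reached at most 1.97% of the 75th percentile in BH13 and 0.99% in REF. The mean net signal of negative control spots was also higher in BH13 than in REF, and its part in the rise of FMT1 was not tested. Of 16 activators that act on single mitochondrial messengers, 3 were higher and 9 lower (18.8% and 56.2%), the median being -0.34. Among activators of messengers for cytochrome oxidase and cytochrome b, PET54 rose by 1.84 ± 0.12 and CBS1 by 1.18 ± 0.14, while PET122 fell by 1.73 ± 0.16. Of 13 mitochondrial aminoacyl-tRNA synthetases, 2 were higher and 5 lower (15.4% and 38.5%), the median being -0.13. MSK1, for lysine, fell by 0.94 ± 0.08 and MSF1, for phenylalanine, rose by 0.55 ± 0.08. Of 12 genes for mitochondrial transcription and DNA, 2 were higher and 6 lower (16.7% and 50%), the median being -0.30. Among them MGM101, a recombination protein, fell by 0.95 ± 0.07.

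Of 16 regulator genes of respiration, retrograde signalling and ribosome synthesis, 5 were higher and 6 lower. These were 31.2% and 37.5%, beside 38% and 43.3% of all genes. HAP4, the activating subunit of the Hap complex that drives respiratory genes, rose by 1.43 ± 0.08, and HAP2, a DNA-binding subunit of that complex, fell by 0.73 ± 0.10. FHL1 and IFH1, which activate cytosolic ribosomal protein genes, fell by 1.34 ± 0.09 and 0.78 ± 0.09. PUF3, whose protein binds many messengers for mitochondrial ribosomal proteins, had a difference of -0.13 ± 0.15 (limma adjusted p = 0.436) and is named after its value was seen. Markers of cell type also differed between the strains. All 7 markers of a cells were lower in BH13, with a summed signal of 27.6% to 28.5% of the 75th percentile against 753% to 786% in REF, and MFA2 and AGA2 were on no BH13 array well above background. Among 10 haploid-specific genes, 9 were lower and 1 higher, with sums of 67.98% to 68.8% in BH13 and 751% to 761% in REF, and HO was not well above background in BH13. Of 5 alpha-cell markers, 4 were tested, with 2 higher and 1 lower, and sums of 15.8% to 19.4% in BH13 and 17.4% to 21.3% in REF. Their part in the values of the members was not tested.

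In a split chosen after the values were seen, members that rose mostly had a lower neighbour among genes read divergently within 1000 bp. Members that fell had neighbours of both directions. In the RefSeq table, 35 members had an adjacent protein-coding gene on the other strand, with starts facing away within 1000 bp and both genes tested. In 26 of these pairs both genes were called, and 9 of the 26, or 34.6%, had the same direction. Of 695 such pairs without a member in which both genes were called, 57.1% had the same direction. Split by the member, 2 of 13 pairs with a higher member had the same direction (15.4%), and 7 of 13 with a lower member (53.8%). No such split is given for the pairs without a member, and of all genes tested 38% were called higher and 43.3% lower. MRPL32 rose by 2.73 while its neighbour CDC10, a septin, fell by 0.20 ± 0.07. MRPS17 rose by 1.98 beside GCV2, a glycine cleavage subunit, which fell by 1.30 ± 0.12. MRPL16 rose by 0.44 beside URA7, a CTP synthase, which fell by 1.65 ± 0.08, and MRPL6 rose by 0.25 beside IMP3, a ribosome biogenesis factor, which fell by 1.30 ± 0.09. In the other direction, MRPL31 fell by 0.31 beside CMC1, a factor of cytochrome oxidase assembly, which rose by 2.35 ± 0.14. MRP1 fell by 1.02 beside SVF1, which fell by 1.07 ± 0.08, and MRPL20 rose by 0.82 beside the splicing helicase gene PRP16, which rose by 0.77 ± 0.07. This comparison, its split and the neighbours named were chosen after the values were seen, and the difference between the shares was not tested.

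**Figure D5:**
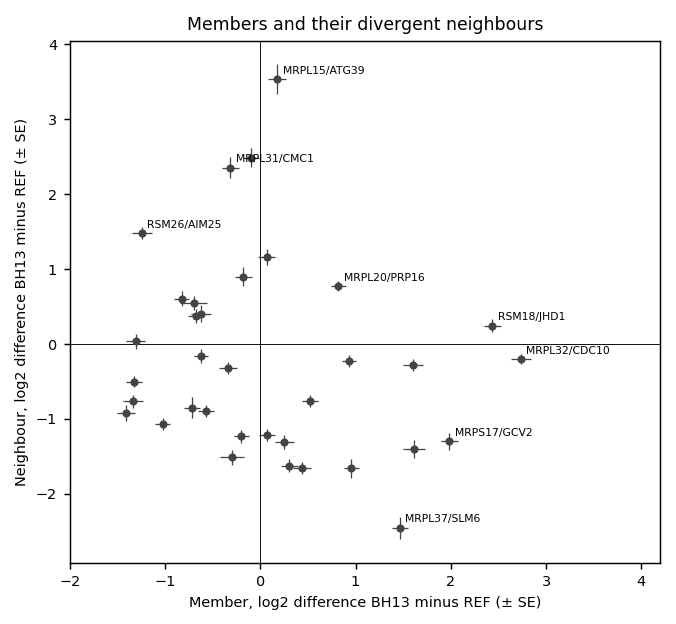
Each point is 1 of 35 members with a divergent neighbour, placed at the member's log2 difference (horizontal) and the neighbour's (vertical), with standard errors as bars (n = 3 arrays per strain). Most members to the right of 0 have a neighbour below 0, with MRPL20 and RSM18 among the exceptions.

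The members lay on 14 of the 16 nuclear chromosomes, and the medians of all genes tested per chromosome were between -0.20 and 0.14. Chromosome IV held the most members, 12, of which 3 were higher and 5 lower. Chromosome XIV held 10, of which 2 were higher and 7 lower, and chromosome XI held 8, of which 5 were higher and 2 lower. Of all genes tested, 38% were called higher and 43.3% lower. The medians of all genes on chromosomes IV, XIV and XI were 0.01, -0.17 and -0.0047. The authors' deposited table of processed values held 7 of the members, MRP35 and MRPL32 with higher values in BH13 and MRPL19, MRPL23, MRPL35, MRPS9 and MRPS35 with lower ones, each of the same sign as in the scanner files. Its differences for MRP35 and MRPS9 were 2.86 and -1.89. That table comes from the same arrays, and the smallest absolute difference at its probes was 0.92. The shared sign is therefore no independent support.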

How the data were processed

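RNA from 3 BH13 and 3 REF samples was labelled with Cy3 and put on Agilent one-colour yeast arrays, 1 array a sample. The deposited scanner files give linear spot intensity after background subtraction. Their headers name Feature Extraction 10.7.3.1 and the submitters' processing notes 9.1. A second deposited table gives log2 values of 1325 probes, centred by row on a median of 0. Its array medians were -0.58, -0.53, -0.55 (BH13), 0.56, 0.60 and 0.52 (REF). Differences from it had a slope of 1.00 and an r of 0.999 against those from the scanner files, and the same sign at every probe, which settles its scale, row centring and direction. How its probes were filtered or normalized is not stated here, but the smallest absolute difference among them was 0.92.

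Each gene had 1 probe in 2 spots. Control spots and outlier spots were dropped, log2 signals averaged, and the array's 75th percentile subtracted. Genes well above background on at least 3 of 6 arrays (5890 of 6256) were fitted in limma 3.58.1 (lmFit, eBayes; R 4.3.3) with strain as the only term, and two-sided p-values were adjusted over all of them. The fit was first tested on simulated data. RefSeq R64 gave names for 5756 of 6256 genes, and lengths, strands through gene names, and neighbours. Its coordinates are not printed, since the array design used an older build. Matplotlib 3.10.9 drew the figures. No list was tested as a set, and permuting 3 arrays against 3 cannot give a p under 0.1. Alternatives changed the background correction (normexp, offset 50, on median signals), the scaling (median, quantile, cyclic loess), the filter, outlier spots, the variance model, a block for replicate number or slide, the definition of the group, the source table and the arrays included.

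The members and lists were chosen with earlier results of these data known. In each subunit the rule named the 6 called members with the largest differences in each direction and the 3 nearest to 0. MRP8, RSM22 and up to 3 called genes a direction from every other list were added, and further members may be given by their difference alone. Promoter and protein sequences were not used here, so the planned motif counts were not made.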

Additional observations from a re-analysis of the deposited data

How the results depend on the processing

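Counts of members called stayed within 1.5 times their values under every alternative except the 2-fold requirement, which left 10 higher and 12 lower. The deposited table of log2 values gave 7 members and no count. Of the 54 members called, 47 kept call and direction throughout, and MRP49, MRP8, MRPL50, MRPL6, MRPS5, RSM23 and RSM28 lost the call under at least 1 alternative, with no reversal. MRPL50 lost it with cyclic loess normalization only, and the other 6 each lost it without at least 1 array, with limma adjusted p up to 0.139 (MRPL6 without BH13 replicate 1). Of the 13 not called, 10 gained a call somewhere. RSM7 changed sign with cyclic loess normalization (0.0087), which also put the median of large subunit genes at -0.11 and of small subunit genes at -0.08 and gave 29 members higher and 27 lower. Quantile normalization gave a large minus small median of 0.0038. The cause was not tested. Leaving out 1 array at a time gave 20 to 27 members higher and 28 to 32 lower, a large subunit median of -0.26 to -0.15, a small subunit median of -0.22 to -0.11 (the highest without BH13 replicate 1), a large minus small median of -0.13 to 0.047 (the highest without BH13 replicate 3, and -0.12 without REF replicate 1), and MRPL7 at -0.0071 (without REF replicate 2) to 0.12. In these fits the shortest members had medians of 0.49 to 0.58 and the longest -0.69 to -0.57. Over all alternatives, Spearman's coefficient between difference and length across members was -0.56 to -0.51. With the replicate number as a block, 25 members were higher and 31 lower, and 2270 genes in all were higher, against 2240 without it. Deviations of same-numbered samples correlated at 0.13, 0.24 and 0.0027, so the numbers were not taken as pairs. With the slide as a random block, 23 members were higher and 30 lower. With 3 arrays a strain, differences of up to 0.30 among members were not called.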
